A study of Mus musculus with 20 samples.

Results

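The genes described are 10 that mark lipid-associated macrophages, the cells that gather in fatty or injured tissue, and macrophages that enter the liver from the blood: Trem2, Gpnmb, Cd9, Cd63, Spp1, Lgals3, Lpl, Fabp5, Lyz2 and Cybb. They were found by gene symbol in the array annotation. A symbol matched 1 array feature for 9 of the 10, out of 19505 genes tested, and Spp1, which encodes osteopontin, was not analysed here. Liver RNA came from mice with the genotype labels OGTL KO and OGTL WT at 4 and 8 weeks of age. The 4 groups were OGTL KO at 4 weeks, OGTL WT at 4 weeks, OGTL KO at 8 weeks and OGTL WT at 8 weeks, with 5 arrays from 5 mice each. OGT is the O-GlcNAc transferase, an enzyme that attaches a single sugar, N-acetylglucosamine, to proteins inside the cell. The promoter or Cre line behind the deletion, the sex of the mice and any treatment shared by the groups are not given in the sources used here. Values are log2 signals, so a difference of 1 is a change of 2-fold.

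Lipid-associated macrophages were described in adipose tissue and fatty liver as cells that take up lipid, carry many lysosomes and depend on the receptor TREM2. TREM2 binds lipids and lipoproteins at the cell surface and signals through the adaptor TYROBP, and cells with that programme also make GPNMB, CD9, CD63, osteopontin, lipoprotein lipase and FABP5. In an injured liver such cells arise largely from blood monocytes that replace lost Kupffer cells, the resident liver macrophages. Whole liver RNA was measured, in which fewer cells of a type and less RNA per cell cannot be told apart. Several of the genes are also used by other liver cells: CD9 and CD63 are tetraspanins of many cell types, bile duct cells can make galectin-3, and lipoprotein lipase is also made by muscle, fat and the liver of young mice.

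The promoters of the 4 genes that were higher in KO than in WT at both ages, Gpnmb, Cd9, Cd63 and Cybb, are shown with that of Lyz2, which was higher at 8 weeks without a call at 4 weeks. Each sequence is the 250 bases before the gene's start in RefSeq, build GRCm38.p6, from 5′ to 3′ along the gene's own strand. A promoter was held for 8 of the 10 genes, 7 of them measured. Capitals mark a match on either strand to TGANTCA, a loose form of the AP-1 motif with any base at N, or to the PU.1 core GAGGAA. AP-1 is a stress-responsive factor and PU.1 is the factor that sets up the macrophage lineage.
Gpnmb (chr6:49036268-49036517, plus strand): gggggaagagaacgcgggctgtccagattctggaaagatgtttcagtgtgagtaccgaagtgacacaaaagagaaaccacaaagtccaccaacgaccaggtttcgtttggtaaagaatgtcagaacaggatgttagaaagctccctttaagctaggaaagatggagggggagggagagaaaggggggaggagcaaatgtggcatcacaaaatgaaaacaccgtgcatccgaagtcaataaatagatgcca
Cd9 (chr6:125494761-125495010, minus strand): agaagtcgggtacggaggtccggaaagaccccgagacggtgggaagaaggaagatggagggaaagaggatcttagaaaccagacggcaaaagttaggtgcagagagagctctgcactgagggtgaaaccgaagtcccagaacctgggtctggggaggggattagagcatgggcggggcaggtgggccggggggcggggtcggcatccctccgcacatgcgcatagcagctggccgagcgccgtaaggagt
Cd63 (chr10:128909095-128909344, plus strand): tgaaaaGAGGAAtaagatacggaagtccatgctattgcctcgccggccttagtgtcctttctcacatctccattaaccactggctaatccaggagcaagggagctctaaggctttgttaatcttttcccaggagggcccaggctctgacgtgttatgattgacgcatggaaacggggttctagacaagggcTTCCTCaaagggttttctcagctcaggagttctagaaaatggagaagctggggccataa
Cybb (chrX:9469325-9469574, minus strand): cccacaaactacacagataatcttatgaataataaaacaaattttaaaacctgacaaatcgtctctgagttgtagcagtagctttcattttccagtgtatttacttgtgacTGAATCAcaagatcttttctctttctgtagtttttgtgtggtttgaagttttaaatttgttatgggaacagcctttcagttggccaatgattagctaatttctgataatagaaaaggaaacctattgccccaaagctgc
Lyz2 (chr10:117282273-117282522, minus strand): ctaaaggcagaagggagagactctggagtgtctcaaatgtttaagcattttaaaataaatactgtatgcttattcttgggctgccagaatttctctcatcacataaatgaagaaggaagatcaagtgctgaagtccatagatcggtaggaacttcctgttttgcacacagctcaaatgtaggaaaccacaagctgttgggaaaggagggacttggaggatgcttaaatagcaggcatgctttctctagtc

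The Cd63 promoter held the PU.1 core at 244 to 239 bases before the start on the gene's strand and at 59 to 54 bases on the opposite strand. The Cybb promoter held the loose AP-1 form at 139 to 133 bases before the start. The Gpnmb, Cd9 and Lyz2 windows, and that of Lgals3, held none of the 5 motifs searched, which besides these were the E-box CACGTG, the TATA box TATAAA and the antioxidant response element TGACNNNGC. In the Trem2 promoter a match to the loose AP-1 form lay 9 to 3 bases and a PU.1 core 40 to 35 bases before the start. The AP-1 matches of Cybb and Trem2 both read TGAATCA, with A at the free base. Among 32851 promoter windows of the same length, 23.3% held the PU.1 core and 6.7% the AP-1 form with any base at N. The E-box was held by 6.0%, the TATA box by 12.4% and the antioxidant element by 10.2%. A match is a run of letters and not a measured binding site.

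Ogt, the gene targeted by the deletion, was 7.37 to 8.84 in KO livers, against 9.14 to 9.87 in WT livers at 4 weeks, a difference of -1.43 (adjusted p = 8.82e-05) by limma. At 8 weeks it was 9.55 to 10.01 in livers labelled KO, against 9.84 to 10.33 in livers labelled WT, a difference of -0.27 (adjusted p = 0.529), so the Ogt signal did not separate the labels at that age and groups are called KO and WT as labelled. The 8-week minus 4-week difference was called, at 1.16 (limma adjusted p = 0.0307). From 4 to 8 weeks Ogt rose by 1.67 (adjusted p = 9.46e-06) in KO and differed by 0.51 (adjusted p = 0.136) in WT. Where the Ogt probes lie relative to the deleted part is not given in the sources used here. Hepatocyte markers averaged 16.84 to 17.13 in KO and 17.18 to 17.37 in WT at 4 weeks, and 17.10 to 17.26 in KO and 17.22 to 17.59 in WT at 8 weeks. Skeletal muscle markers averaged 12.60 and 12.29 in replicates 4 and 5 of KO at 4 weeks and 14.52 in replicate 4 of WT at 4 weeks, against 4.54 to 6.21 in the other 17 arrays. A background level, the 95th percentile of 1412 olfactory and vomeronasal receptor genes, was 5.04 in KO and 5.01 in WT at 4 weeks and 5.02 in KO and 5.20 in WT at 8 weeks. Between 41.6% and 45.4% of genes did not exceed it in a group. Where the mean of the lower group did not exceed it, the higher group's mean minus the background level is given as a lower limit of the difference, written as at least. Setting array medians equal moved the median KO minus WT difference of all genes at 8 weeks to -0.15, against -0.036 as deposited, and at 4 weeks to -0.07, against 0.002.

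At 8 weeks 7 of the 9 genes were higher in KO than in WT: Cd63, Lyz2, Lpl, Cd9, Cybb, Gpnmb and Trem2. No member was lower at 8 weeks, also without adjustment of the limma p-values, where 7 were higher and 0 lower. The share of all genes below an unadjusted p of 0.05 is not given here, so unadjusted counts here and below are descriptions. At 4 weeks 5 were higher, Cd63, Cd9, Gpnmb, Cybb and Lgals3, and Fabp5 was lower. Gpnmb, Cd9, Cd63 and Cybb were higher at both ages. Calls here and below rest on a limma adjusted p below 0.05 over all genes, which at 8 weeks marked 4.94% of genes as higher and 1.65% as lower, and at 4 weeks 4.70% as higher and 5.48% as lower. With array medians set equal, 48.3% of the genes called at 8 weeks were higher, against 75.0% as deposited, and at 4 weeks 33.2%, against 46.2%. The number of members called was the same under that scaling, 7 at 8 weeks and 6 at 4 weeks. The median difference of the 9 genes was 1.80 at 8 weeks and 1.23 at 4 weeks, beside -0.04 and 0.00 over all genes. The members were chosen with earlier results of these data known, so their counts and medians beside all genes are descriptions. Without the 3 arrays that held muscle transcripts, 6 members were again called at 4 weeks. Where 2 groups of 5 arrays did not overlap, the exact two-sided permutation p was 0.00794, the smallest that 5 against 5 allows. The share of all genes without overlap is not given here, so such separation is a description.

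**Figure D1:**
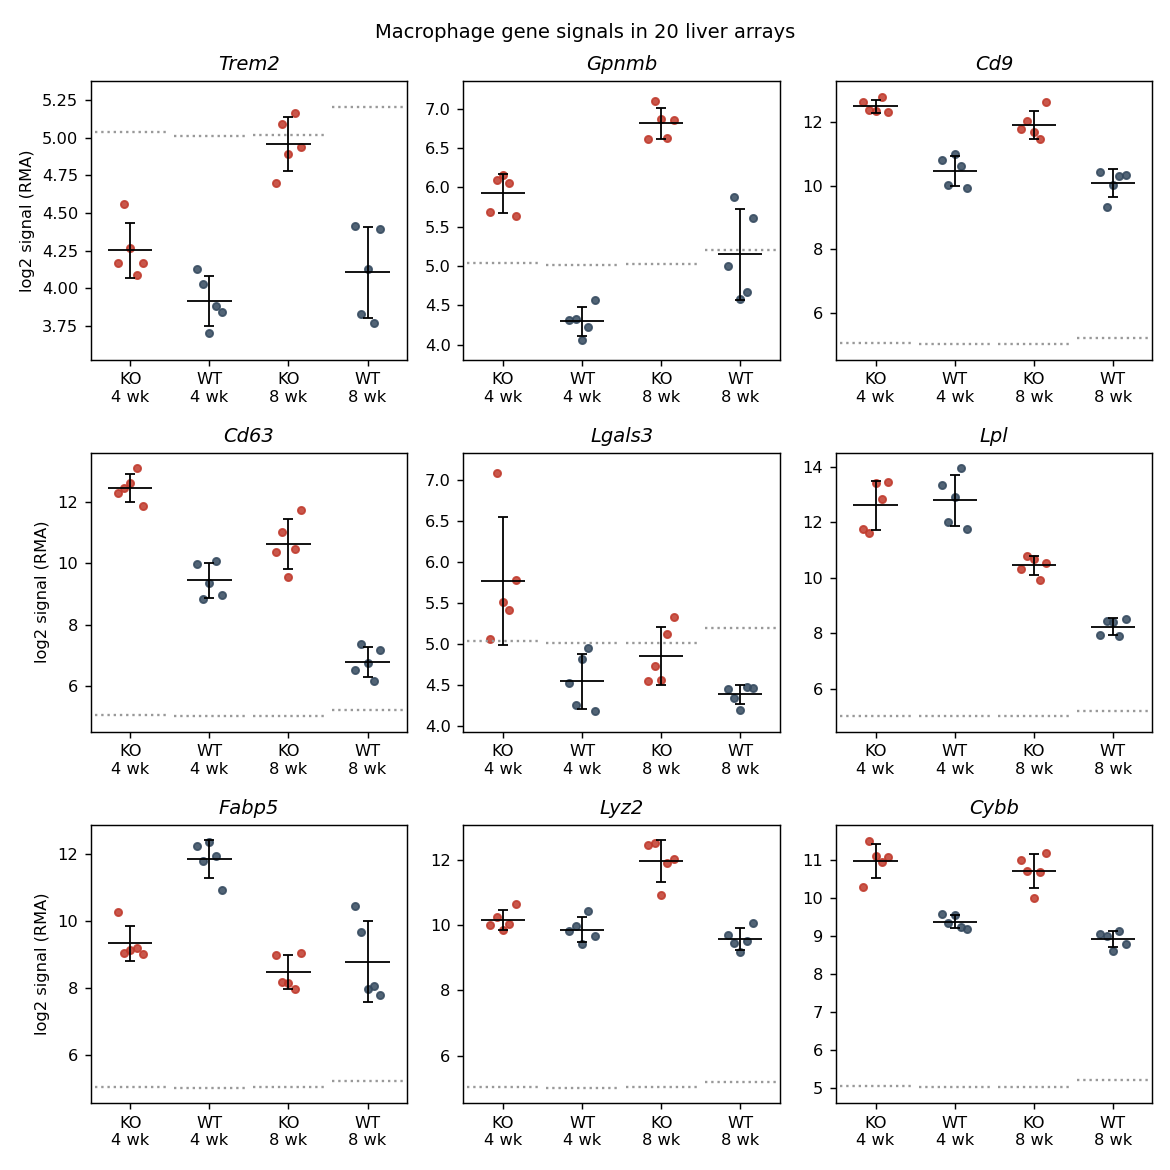
Log2 signal (y axis) of the 9 measured genes in each of the 20 liver arrays, by group (x axis: KO then WT at 4 weeks, KO then WT at 8 weeks). Points are arrays, bars are the mean and SD of 5 arrays, and the dotted lines are the background level of each group. All 5 KO points of Gpnmb, Cd9, Cd63 and Cybb lie above all 5 WT points of the same age, and the Trem2 group means lie below the dotted lines.

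Trem2, the lipid-sensing receptor, gave weak signals at both ages. It was 4.70, 5.09, 4.89, 5.16 and 4.94 in KO livers at 8 weeks, against 4.41, 3.83, 4.13, 3.77 and 4.39 in WT livers. All KO values lay above all WT values, but neither group mean exceeded background, so the difference of 0.85 (SE 0.15, 95% interval 0.55 to 1.15, limma adjusted p = 0.000741) is between signals near the floor of the array and its size in transcripts is uncertain. At 4 weeks the values were 4.17, 4.56, 4.27, 4.09 and 4.17 in KO, against 4.13, 4.03, 3.70, 3.88 and 3.84 in WT. These groups overlapped, and the difference of 0.34 (SE 0.15, 95% interval 0.03 to 0.64, limma adjusted p = 0.164) was not called, with an exact permutation p of 0.0159.

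Gpnmb encodes a transmembrane glycoprotein of lysosomes and melanosomes that macrophages make under lipid load. It was 6.62, 7.10, 6.87, 6.63 and 6.86 in KO livers at 8 weeks, against 5.0, 5.88, 4.58, 4.67 and 5.61 in WT livers. The 4-week values were 5.69, 6.09, 6.16, 6.06 and 5.63 in KO livers, against 4.31, 4.33, 4.06, 4.22 and 4.57 in WT livers. The KO and WT arrays did not overlap at either age, and only the KO group means exceeded background. The differences were 1.67 (SE 0.21, 95% interval 1.24 to 2.10, limma adjusted p = 2.55e-05) at 8 weeks and 1.63 (SE 0.21, 95% interval 1.20 to 2.06, limma adjusted p = 2.38e-05) at 4 weeks. Measured against the background level, the excess in KO was at least 1.62 at 8 weeks, or at least 3.07-fold, and at least 0.91 at 4 weeks, or at least 1.88-fold. In WT at 8 weeks replicates 2 and 5 were higher than the other arrays of that group.

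Cd9 and Cd63 encode tetraspanins, membrane proteins that organise receptors at the cell surface and on endosomes and lysosomes. Cd9 was 11.77, 12.02, 11.68, 11.47 and 12.63 in KO livers at 8 weeks, against 10.44, 9.32, 10.01, 10.30 and 10.33 in WT livers. At 4 weeks it was 12.63, 12.37, 12.35, 12.80 and 12.33 in KO livers, against 10.79, 10.02, 10.98, 10.62 and 9.91 in WT livers. No KO value overlapped a WT value at either age, and the 5 KO arrays at 4 weeks lay close together, within 12.33 to 12.80. The difference was 1.83 (SE 0.24, 95% interval 1.33 to 2.34, limma adjusted p = 4.67e-05) at 8 weeks, which is 3.57-fold, and 2.03 (SE 0.24, 95% interval 1.53 to 2.53, limma adjusted p = 1.29e-05) at 4 weeks, which is 4.09-fold.

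Cd63 had the largest differences between KO and WT of the 9 genes at both ages. It was 10.38, 11.02, 9.55, 10.47 and 11.73 in KO livers at 8 weeks, against 6.53, 7.37, 6.75, 6.15 and 7.16 in WT livers. Its 4-week values were 12.29, 12.45, 12.61, 13.10 and 11.86 in KO livers, against 9.97, 8.84, 9.37, 10.08 and 8.95 in WT livers. The lowest KO array exceeded the highest WT array at each age. The difference was 3.84 (SE 0.34, 95% interval 3.13 to 4.54, limma adjusted p = 6.06e-07) at 8 weeks, or 14.3-fold, and 3.02 (SE 0.34, 95% interval 2.31 to 3.73, limma adjusted p = 6.88e-06) at 4 weeks, or 8.11-fold. The 4 group means spanned 5.67 log2 units, since Cd63 was also lower at 8 than at 4 weeks in both genotypes.

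Lgals3 encodes galectin-3, a secreted lectin that binds galactose-bearing sugars and is abundant in activated macrophages. At 4 weeks it was 5.07, 7.09, 5.51, 5.42 and 5.78 in KO livers, against 4.53, 4.26, 4.82, 4.95 and 4.18 in WT livers. The groups did not overlap, and replicate 2 of KO stood above the other KO arrays. The difference was 1.23 (SE 0.27, 95% interval 0.67 to 1.79, limma adjusted p = 0.00453), or at least 0.76 against background, and over fits that each left out 1 array it ran from 0.90 to 1.40 with adjusted p from 0.00185 to 0.0169. At 8 weeks Lgals3 was 4.55, 4.73, 4.56, 5.13 and 5.33 in KO livers, against 4.45, 4.35, 4.20, 4.48 and 4.47 in WT livers. Every KO array again lay above every WT array, with an exact permutation p of 0.00794, but the difference of 0.47 (SE 0.27, 95% interval -0.09 to 1.03, limma adjusted p = 0.361) was not called and neither group mean exceeded background.

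Lpl encodes lipoprotein lipase, which releases fatty acids from circulating triglyceride. At 8 weeks it was 10.30, 10.78, 10.68, 9.93 and 10.52 in KO livers, against 7.93, 8.43, 8.41, 7.91 and 8.52 in WT livers. The groups were well apart, with a difference of 2.20 (SE 0.38, 95% interval 1.41 to 2.99, limma adjusted p = 0.000826), or 4.6-fold. At 4 weeks it was 11.76, 11.61, 13.40, 12.83 and 13.46 in KO livers, against 13.34, 12.02, 12.91, 13.95 and 11.75 in WT livers. The 4-week groups overlapped widely, and the difference of -0.18 (SE 0.38, 95% interval -0.97 to 0.61, limma adjusted p = 0.85) was not called. Muscle makes lipoprotein lipase, and the 3 arrays with muscle transcripts gave 12.83 and 13.46 in KO replicates 4 and 5 and 13.95 in WT replicate 4, the highest Lpl value of all arrays. Without those arrays the 4-week difference was -0.25 (limma adjusted p = 0.775). It changed sign, without a call, when KO replicate 1 (0.03), KO replicate 2 (0.07) or WT replicate 4 (0.11) was left out.

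Fabp5, a fatty acid binding protein of the cytoplasm, was the one member that was lower in KO. At 4 weeks it was 10.26, 9.03, 9.11, 9.18 and 9.01 in KO livers, against 12.22, 11.77, 12.34, 11.93 and 10.92 in WT livers. Every KO array lay below every WT array, and KO replicate 1 stood above the other KO arrays. The difference was -2.52 (SE 0.43, 95% interval -3.40 to -1.63, limma adjusted p = 0.000509), so the KO signal was 17.5% of the WT signal. At 8 weeks Fabp5 was 8.98, 8.18, 8.15, 7.95 and 9.03 in KO livers, against 10.45, 9.65, 7.96, 8.04 and 7.79 in WT livers. The WT group was the most spread of any member, with replicates 1 and 2 above the rest and an SD of 1.20, and the difference of -0.32 (SE 0.43, 95% interval -1.21 to 0.57, limma adjusted p = 0.754) was not called. Without WT replicate 1 it was 0.10 (limma adjusted p = 0.931).

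Lyz2 encodes the lysozyme of macrophages, monocytes and neutrophils, which cleaves bacterial cell walls. At 8 weeks it was 12.47, 12.51, 10.94, 11.91 and 12.04 in KO livers, against 9.69, 9.44, 9.19, 9.51 and 10.07 in WT livers. All KO arrays exceeded all WT arrays, and KO replicate 3 was the lowest of its group. The difference was 2.39 (SE 0.25, 95% interval 1.87 to 2.92, limma adjusted p = 4.40e-06), or 5.26-fold. At 4 weeks Lyz2 was 10, 10.25, 9.85, 10.03 and 10.65 in KO livers, against 9.81, 9.99, 9.42, 10.44 and 9.67 in WT livers. Those groups overlapped, and the difference of 0.29 (SE 0.25, 95% interval -0.24 to 0.82, limma adjusted p = 0.576) was not called. Lyz1, the near-identical neighbouring lysozyme gene, differed by 0.64 (adjusted p = 0.0128) at 8 weeks and 0.29 (adjusted p = 0.293) at 4 weeks, and signals of such close copies cannot be assigned to 1 gene with certainty.

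Cybb encodes gp91phox, the membrane subunit of the phagocyte NADPH oxidase that makes superoxide. It was 10.99, 10.71, 9.99, 10.69 and 11.18 in KO livers at 8 weeks, against 9.05, 9.0, 8.60, 9.13 and 8.79 in WT livers. Cybb at 4 weeks was 10.28, 11.51, 11.10, 10.94 and 11.08 in KO livers, against 9.57, 9.34, 9.55, 9.23 and 9.19 in WT livers. KO and WT did not overlap at either age, and the WT arrays varied less than the KO arrays, with SDs of 0.45 in KO and 0.22 in WT at 8 weeks and 0.45 in KO and 0.18 in WT at 4 weeks. The difference was 1.80 (SE 0.21, 95% interval 1.36 to 2.23, limma adjusted p = 1.20e-05) at 8 weeks, or 3.48-fold, and 1.61 (SE 0.21, 95% interval 1.17 to 2.04, limma adjusted p = 3.17e-05) at 4 weeks, or 3.04-fold.

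The KO minus WT difference was itself compared between the ages. Taken with its sign, it was greater at 8 than at 4 weeks for 3 of the 9 genes, Lpl, Fabp5 and Lyz2, and smaller for none. Over all genes this interaction was called higher for 2.05% and lower for 1.0%. Without adjustment of the limma p-values 4 members were higher and 0 lower, with no share of all genes to set beside them. For Lpl the 8-week minus 4-week difference was 2.38 (SE 0.54, 95% interval 1.26 to 3.51, limma adjusted p = 0.0191), between 2.20 at 8 weeks and -0.18 at 4 weeks. For Lyz2 it was 2.10 (SE 0.36, 95% interval 1.36 to 2.85, limma adjusted p = 0.00267), between 2.39 at 8 weeks and 0.29 at 4 weeks. Both calls remained under each alternative setting and each array left out. For Fabp5 it was 2.20 (SE 0.60, 95% interval 0.95 to 3.45, limma adjusted p = 0.0494), between -0.32 at 8 weeks and -2.52 at 4 weeks. That call was lost in 14 of 20 fits that left out 1 array and in 4 of 8 other settings, and the adjusted p ran from 0.00878 to 0.134 over the alternatives.

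The other 6 genes had no call in the interaction. The intervals of the difference were -0.91 to 0.51 for Cd9, -0.42 to 0.81 for Cybb, -0.57 to 0.65 for Gpnmb and -0.18 to 1.82 for Cd63. These intervals include 0 and do not show that the differences were equal at both ages. Trem2 had 0.51 (SE 0.21, 95% interval 0.09 to 0.94, limma adjusted p = 0.206), and Lgals3 had -0.76 (SE 0.38, 95% interval -1.55 to 0.03, limma adjusted p = 0.346). Trem2 at 4 weeks and Lgals3 at 8 weeks thus missed a call without a called change between the ages.

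**Figure D2:**
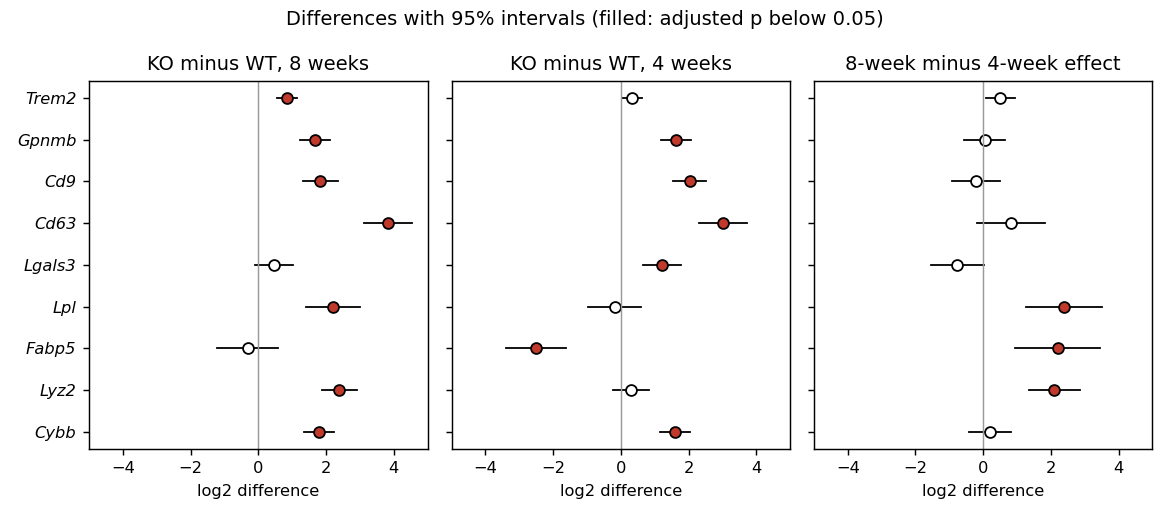
Log2 differences (x axis) with 95% intervals for the 9 measured genes: KO minus WT at 8 weeks, KO minus WT at 4 weeks, and the 8-week minus the 4-week difference. Filled points have a limma adjusted p below 0.05: 7 at 8 weeks, 6 at 4 weeks, of which Fabp5 lies left of 0, and 3 in the comparison of the ages (Lpl, Fabp5 and Lyz2).

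Between 8 and 4 weeks the members did not move together in either genotype. In KO livers Lyz2, Gpnmb and Trem2 were higher at 8 weeks and Lpl, Cd63 and Lgals3 were lower. In WT livers Gpnmb was higher at 8 weeks and Lpl, Fabp5 and Cd63 were lower. Over all genes 7.85% were called higher and 6.78% lower in KO, and 3.71% higher and 5.23% lower in WT. In WT 41.5% of the called genes were higher at 8 weeks, and 52.0% with array medians set equal. The median difference of the 9 genes was -0.58 in KO and -0.38 in WT, beside 0.02 and 0.04 over all genes.

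Lpl averaged 10.44 ± 0.34 in KO livers at 8 weeks and 12.61 ± 0.88 at 4 weeks, a difference of -2.17 (SE 0.38, 95% interval -2.96 to -1.38, limma adjusted p = 0.00045). In WT livers it averaged 8.24 ± 0.30 at 8 weeks and 12.79 ± 0.91 at 4 weeks, a difference of -4.55 (SE 0.38, 95% interval -5.35 to -3.76, limma adjusted p = 5.33e-08). The fall with age was thus smaller in KO, by the 2.38 of the interaction. Fabp5 averaged 8.46 ± 0.51 in KO livers at 8 weeks and 9.32 ± 0.53 at 4 weeks, a difference of -0.86 (SE 0.43, 95% interval -1.75 to 0.03, limma adjusted p = 0.206) that was not called. In WT livers it averaged 8.78 ± 1.20 at 8 weeks and 11.84 ± 0.56 at 4 weeks, a difference of -3.06 (SE 0.43, 95% interval -3.94 to -2.17, limma adjusted p = 4.65e-05).

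Cd63 was lower at 8 weeks in both genotypes, with differences of -1.83 (adjusted p = 0.000731) in KO and -2.65 (adjusted p = 1.78e-05) in WT. Lyz2 averaged 11.97 ± 0.63 in KO livers at 8 weeks and 10.16 ± 0.31 at 4 weeks, a difference of 1.82 (adjusted p = 4.04e-05), while in WT livers the difference was -0.29 (adjusted p = 0.571). Gpnmb was higher at 8 weeks by 0.89 in KO (adjusted p = 0.00485) and by 0.85 in WT (adjusted p = 0.0101), although neither WT group mean exceeded background. Trem2 was higher by 0.70 in KO (adjusted p = 0.00189), again with both means at or below background, and differed by 0.19 (adjusted p = 0.495) in WT. Lgals3 in KO was lower at 8 weeks, with a difference of -0.91 (adjusted p = 0.0245), or at least 1.69-fold lower when measured down to background, which the 8-week mean did not exceed. That Lgals3 call was lost without KO replicate 2 of 4 weeks (-0.58, adjusted p = 0.0523), without KO replicate 1, 2 or 3 of 8 weeks, and with the KO groups fitted alone (adjusted p = 0.089). Over its alternatives the adjusted p ran from 0.00934 to 0.089. Cd9 differed by -0.58 (adjusted p = 0.119) in KO and -0.38 (adjusted p = 0.387) in WT, and Cybb by -0.27 (adjusted p = 0.459) in KO and -0.46 (adjusted p = 0.194) in WT. Without KO replicate 5 of 8 weeks, Cd9 in KO was called lower at 8 weeks, with a difference of -0.76 (adjusted p = 0.0314), against a range of 0.0314 to 0.258 over its alternatives.

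The order of the 4 group means fell into several types. Cd9, Cd63, Lgals3 and Cybb had KO at 4 weeks on top, then KO at 8 weeks, WT at 4 weeks and WT at 8 weeks. In that order neighbouring groups overlapped for Cd9 between the KO ages and between the WT ages, for Cybb between the KO ages, for Cd63 between KO at 8 weeks and WT at 4 weeks, and for Lgals3 at each step. Trem2 and Gpnmb had the order KO at 8 weeks, KO at 4 weeks, WT at 8 weeks and WT at 4 weeks, and KO at 8 weeks overlapped no other group. In that order KO at 4 weeks and WT at 8 weeks overlapped for both genes. Lyz2 also had KO at 8 weeks on top and apart, above KO at 4 weeks, WT at 4 weeks and WT at 8 weeks, which overlapped from one to the next. Lpl followed age first, with KO and WT at 4 weeks overlapping above KO at 8 weeks and WT at 8 weeks, which each stood apart. Fabp5 stood apart in WT at 4 weeks, and the other 3 groups overlapped from one to the next.

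Likeness between 2 genes was measured as the root mean square difference of their log2 signals over the 20 arrays, after each gene was centred on its own mean. The closest members were Cd9 and Cybb at 0.45, followed by Lgals3 and Cybb at 0.59 and Trem2 and Gpnmb at 0.67. The farthest were Cd63 and Fabp5 at 2.57. Genes outside the set that lay nearest to Cybb were Spi1 at 0.32, which encodes PU.1, Ctss at 0.37, a lysosomal protease of antigen-presenting cells, and Capsl at 0.37. Nearest to Lgals3 were Lgmn at 0.39, a lysosomal protease, H2-T10 at 0.39 and Cyth4 at 0.40. For Cd9 they were Anxa5 at 0.38, Alcam at 0.44 and Sirpa at 0.46, a myeloid inhibitory receptor. For Lyz2 they were Pdgfrb at 0.37, the platelet-derived growth factor receptor of stellate cells and fibroblasts, Lbh at 0.37 and Ncam1 at 0.42.

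Pdgfrb, like Lyz2, was higher in KO at 8 weeks, by 2.74 (limma adjusted p = 1.71e-07), with -0.08 (adjusted p = 0.883) at 4 weeks. Nearest to Gpnmb were Ajuba at 0.43, Plk2 at 0.47 and H2-DMb2 at 0.49. Nearest to Trem2 were Mtcl1 at 0.23, Lyz1 at 0.24 and Zfp516 at 0.25, against a spread of 0.44 of Trem2 about its own mean. Nearest to Cd63 were Vcam1 at 0.84, an adhesion molecule for leukocytes, Gstm3 at 0.86 and Abcb1a at 0.91. Nearest to Lpl were H2ac15 at 0.60, Atp6v0d2 at 0.70, a proton pump subunit of macrophages and osteoclasts, and Car2 at 0.73. For Fabp5 the nearest were Gstp3 at 0.80, Sqle at 0.84, an enzyme of cholesterol synthesis, and Cyp2a22 at 0.85. The spread about the own mean was 2.13 for Cd63, 1.95 for Lpl, 1.49 for Fabp5, 1.06 for Cd9 and 1.01 for Lyz2. It was 0.98 for Gpnmb, 0.93 for Cybb and 0.68 for Lgals3. Distances of members with unlike spreads are thus not on a common scale. Mtcl1, with group means of 4.08 to 4.79, was like Trem2 not above background in any group. These distances share the same arrays and groups and are descriptions.

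Single arrays differed across the members. Among KO livers at 8 weeks, replicate 5 held the highest value of its group for 5 of the 9 genes and replicates 1, 3 and 4 the lowest for 3 each. The cholangiocyte markers, genes of bile duct cells, averaged 7.80, 8.19, 6.70, 7.0 and 9.22 in KO replicates 1 to 5 at 8 weeks, so replicate 5 was also highest and replicate 3 lowest there. The monocyte-derived macrophage markers averaged 7.21, 7.27, 6.61, 7.13 and 7.39 in the same arrays, with the same replicates at the ends. Among WT livers at 4 weeks, replicate 4, one of the arrays with muscle transcripts, held the highest value for 4 genes, and replicate 5 the lowest for 5. The part of these lists in the members' values was not tested.

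The other gene lists were chosen with earlier results of these data known, so their counts are descriptions. Other genes of the lipid-associated programme were higher more often than lower. Of 21 measured, 8 were higher and 0 lower at 8 weeks, and 4 were higher and 0 lower at 4 weeks. At an unadjusted limma p below 0.05 the counts were 11 and 0 at 8 weeks and 9 and 2 at 4 weeks. Mmp12, a macrophage elastase, was 9.49 ± 1.41 in KO and 4.85 ± 0.58 in WT at 8 weeks, and 10.98 ± 0.96 in KO and 4.86 ± 0.43 in WT at 4 weeks. Neither WT mean exceeded background, so its differences of 4.64 (adjusted p = 8.16e-06) and 6.12 (adjusted p = 3.60e-07) count as at least 4.29 and at least 5.97. Ms4a7, a membrane protein of monocyte-derived macrophages, differed by 1.83 (adjusted p = 5.61e-05) at 8 weeks and 1.47 (adjusted p = 0.000456) at 4 weeks. Axl, a receptor for dying cells, differed by 1.76 (adjusted p = 9.84e-05) at 8 weeks and by 0.80 (adjusted p = 0.0434) at 4 weeks, the second of which lost its call under 11 alternative settings. The fatty acid transporter Cd36 differed by 2.64 (adjusted p = 0.000147) at 8 weeks, and the lysosomal Creg1 by 0.81 (adjusted p = 0.000718) at 4 weeks. The list mean per array was 10.45 to 10.86 in KO and 9.58 to 9.84 in WT at 8 weeks, and 10.55 to 11.05 in KO and 10.10 to 10.57 in WT at 4 weeks. Its median difference was 0.38 at 8 weeks and 0.36 at 4 weeks. Cd68 was not analysed here.

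Of 13 genes of TREM2 signalling, 2 were higher at 8 weeks and 0 were called at 4 weeks by limma, where 2 had an unadjusted p below 0.05. The adaptor Tyrobp differed by 0.66 (adjusted p = 0.0401) at 8 weeks, a call lost under 11 alternative settings, and by 0.56 (adjusted p = 0.0679) at 4 weeks. Vav1, a guanine nucleotide exchange factor, differed by 0.72 (adjusted p = 0.0149) at 8 weeks, a call lost under 2 settings. Of 5 other NADPH oxidase subunits and regulators, 2 were higher at 8 weeks and 1 at 4 weeks. Cyba, the p22phox partner of gp91phox, differed by 0.92 (adjusted p = 0.0287) at 8 weeks and 0.78 (adjusted p = 0.0534) at 4 weeks. The cytosolic Rac2 differed by 0.79 (adjusted p = 0.0302) at 8 weeks and Ncf1 by 0.58 (adjusted p = 0.036) at 4 weeks. The Cyba, Rac2 and Ncf1 calls were lost under 7, 8 and 11 settings.

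Of 14 measured partners of lipoprotein lipase and other fatty acid binding proteins, 0 were higher and 2 lower at 8 weeks, and 0 were higher and 3 lower at 4 weeks, with medians of 0.01 and -0.26. At 4 weeks an unadjusted limma p below 0.05 was reached by 1 higher and 6 lower genes, and at 8 weeks by 0 and 2. Lmf1, which folds lipases in the endoplasmic reticulum, was lower, with -0.92 (adjusted p = 0.0182) at 8 weeks and -1.14 (adjusted p = 0.0026) at 4 weeks. Its cofactor Sel1l differed by -0.68 (adjusted p = 0.0384) and -0.66 (adjusted p = 0.0337), and Fabp1, the liver fatty acid binding protein, by -0.97 (adjusted p = 0.0165) at 4 weeks. The Sel1l calls were lost under 10 and 8 settings, and those of Lmf1 at 8 weeks and of Fabp1 under 2 each.

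Of 14 receptors and relatives of osteopontin and galectin-3, 5 were higher and 0 lower at 8 weeks, and 4 were higher and 0 lower at 4 weeks by limma, or 9 and 1 and 6 and 0 without adjustment. Cd44, a receptor for osteopontin and hyaluronan, differed by 1.83 (adjusted p = 1.16e-05) at 8 weeks and 1.04 (adjusted p = 0.0025) at 4 weeks. The integrin subunits Itgb5, Itga9 and Itga8 differed by 1.28 (adjusted p = 2.17e-05), 1.61 (adjusted p = 0.000297) and 2.55 (adjusted p = 0.000644) at 8 weeks and had no call at 4 weeks, with 0.27, -0.19 and 0.08. Lgals3bp, a secreted ligand of galectin-3, differed by 1.62 (adjusted p = 0.000509) and Lgals8, another galectin, by 0.81 (adjusted p = 0.00191) at 4 weeks. At 8 weeks they differed by 0.45 (adjusted p = 0.391) and -0.36 (adjusted p = 0.213), neither called, and the 8-week minus 4-week difference was called for Lgals8, at -1.17 (adjusted p = 0.00645), and not for Lgals3bp, at -1.16 (adjusted p = 0.116). Of 21 lysosome genes controlled by the TFEB and MITF factors, to whose programme Gpnmb and Cd63 are linked, 2 were higher and 0 lower at 8 weeks, and 2 were higher and 2 lower at 4 weeks. Hexa, a lysosomal hexosaminidase, was higher at both ages, by 1.27 (adjusted p = 2.32e-05) and 0.83 (adjusted p = 0.00121). At 4 weeks the autophagy adaptor Sqstm1 was higher, with 1.12 (adjusted p = 0.000954), and Naglu (-1.16, adjusted p = 0.0014) and Ctsf (-0.82, adjusted p = 0.0025) were lower. At 8 weeks those 3 genes differed by 0.01, -0.39 and 0.08, without a call. The lysosome list had a median of -0.07 at 8 weeks and 0.22 at 4 weeks.

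**Figure D3:**
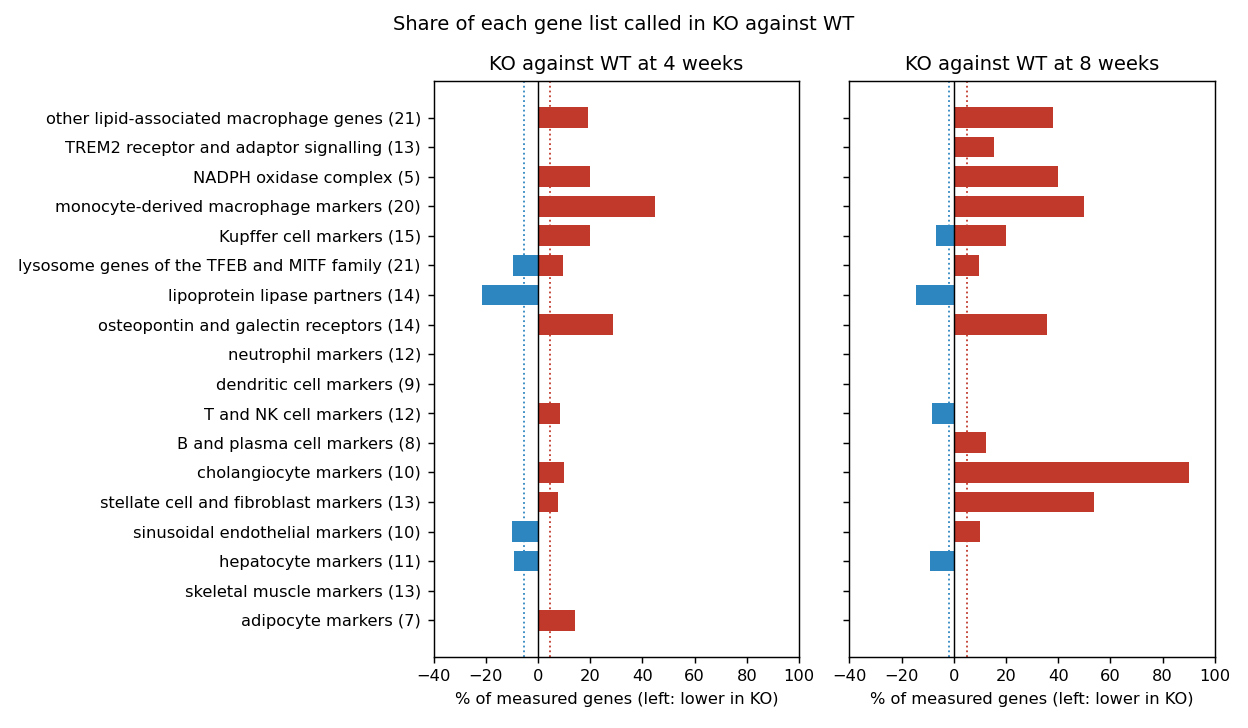
Share of the measured genes of each list (y axis, number measured in brackets) called in KO against WT, in percent (x axis): higher in KO to the right in red, lower to the left in blue. Dotted lines are the shares over all 19505 genes. Lists above the red dotted line at both ages are other lipid-associated, NADPH oxidase, monocyte-derived macrophage, Kupffer, lysosome, osteopontin and galectin, cholangiocyte and stellate. At 8 weeks 9 of 10 cholangiocyte and 7 of 13 stellate genes were called higher. At 4 weeks the NADPH oxidase, cholangiocyte and stellate bars rest on 1 gene each. The lysosome bars rest on 2 genes at each age.

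Monocyte-derived macrophage markers were higher for 10 of 20 genes at 8 weeks and 9 of 20 at 4 weeks, with none lower by limma, also without adjustment, and for 7 at 4 weeks without the 3 arrays with muscle transcripts. The list averaged 6.61 to 7.39 in KO and 6.19 to 6.36 in WT at 8 weeks, and 7.06 to 7.70 in KO and 6.48 to 7.0 in WT at 4 weeks. Ptprc, the CD45 antigen of all leukocytes, differed by 1.04 (adjusted p = 0.00254) at 8 weeks and 1.08 (adjusted p = 0.00141) at 4 weeks. Ccr2, the chemokine receptor of inflammatory monocytes, differed by 1.21 (adjusted p = 0.0093) at 8 weeks and 1.15 (adjusted p = 0.01) at 4 weeks, and the 4-week call was lost without the arrays with muscle transcripts (adjusted p = 0.0812). Ly6c2, a surface protein of inflammatory monocytes, differed by 1.16 (adjusted p = 0.207) at 8 weeks, where the WT mean did not exceed background, and by 2.98 (adjusted p = 0.000563) at 4 weeks, and Ms4a6c by 1.64 (adjusted p = 0.00036) at 8 weeks and 1.44 (adjusted p = 0.000954) at 4 weeks. Adgre1, which encodes F4/80, and Csf1r, the receptor for the macrophage growth factor, differed by 0.81 (adjusted p = 0.0284) and 0.94 (adjusted p = 0.019) at 8 weeks and by 0.53 (adjusted p = 0.149) and 0.14 (adjusted p = 0.804) at 4 weeks. Their 8-week calls were lost under 9 and 4 settings. Ptprc, Adgre1 and Csf1r are on this list but are not particular to monocyte-derived cells. Its counts thus do not separate monocyte-derived from resident macrophages.

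Of 15 Kupffer cell markers, 3 were higher and 1 lower at 8 weeks and 3 were higher at 4 weeks, or 1 at 4 weeks without the arrays with muscle transcripts, with medians of -0.04 and 0.22. At an unadjusted limma p below 0.05, 3 were higher and 5 lower at 8 weeks, and 6 were higher and 1 lower at 4 weeks. The list averaged 7.94 to 8.69 in KO and 8.19 to 8.52 in WT at 8 weeks, and 9.10 to 9.54 in KO and 8.80 to 9.07 in WT at 4 weeks, so the array means of KO and WT overlapped at 8 weeks and did not overlap at 4 weeks. The complement genes C1qa, C1qb and C1qc, made by most liver macrophages, were the 3 markers higher at 8 weeks. They differed by 0.86, 1.88 and 1.10 (limma adjusted p = 0.0126, 0.00155 and 0.00474). At 4 weeks they differed by 0.67, 0.90 and 0.70 (adjusted p = 0.0422, 0.113 and 0.0596), and the C1qa call was lost under 9 settings. Cd163, a haemoglobin scavenger receptor, was lower at 8 weeks, with -1.69 (adjusted p = 0.00577), and differed by -0.89 (adjusted p = 0.141) at 4 weeks. Spic was higher at 4 weeks, with 1.16 (limma adjusted p = 0.0194), a call lost under 3 settings. At 8 weeks Spic differed by 0.04 (adjusted p = 0.966). Clec4f, a lectin of mouse Kupffer cells, differed by -0.68 (adjusted p = 0.105) at 8 weeks and 0.08 (adjusted p = 0.9) at 4 weeks, and Cd5l was higher at 4 weeks, with 1.14 (adjusted p = 0.00472), beside -0.04 (adjusted p = 0.963) at 8 weeks.

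Markers of other cells moved with the KO label at 8 weeks beside the members. Cholangiocyte markers were higher for 9 of 10 genes at 8 weeks, with a median of 2.14, and for 1 of 10 at 4 weeks. The list averaged 6.70 to 9.22 in KO and 4.91 to 5.88 in WT at 8 weeks, and 5.61 to 6.63 in KO and 5.17 to 6.04 in WT at 4 weeks. Epcam, an adhesion molecule of duct epithelium, differed by 4.0 (limma adjusted p = 2.65e-05) at 8 weeks. Its WT mean did not exceed background, so the difference counts as at least 3.81. Tspan8 differed by 5.77 (adjusted p = 1.16e-05) at 8 weeks and 2.51 (adjusted p = 0.0177) at 4 weeks. Stellate cell and fibroblast markers were higher for 7 of 13 genes at 8 weeks and for 1 at 4 weeks. Without the arrays with muscle transcripts the counts were 8 and 0. Timp1 was the gene called at 4 weeks (0.57, limma adjusted p = 0.0382). Its signal did not exceed background in any group, and that call was lost under 11 settings. Lum and Col3a1, genes of the collagen matrix, differed by 3.91 (adjusted p = 2.72e-06) and 3.37 (adjusted p = 0.000156) at 8 weeks. The stellate list averaged 8.35 to 9.51 in KO and 7.10 to 7.87 in WT at 8 weeks, and 8.72 to 10.05 in KO and 8.23 to 9.78 in WT at 4 weeks. The part of these cells in the differences of Cd9, Cd63, Lgals3, Lyz2 or the other members was not tested.

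**Figure D4:**
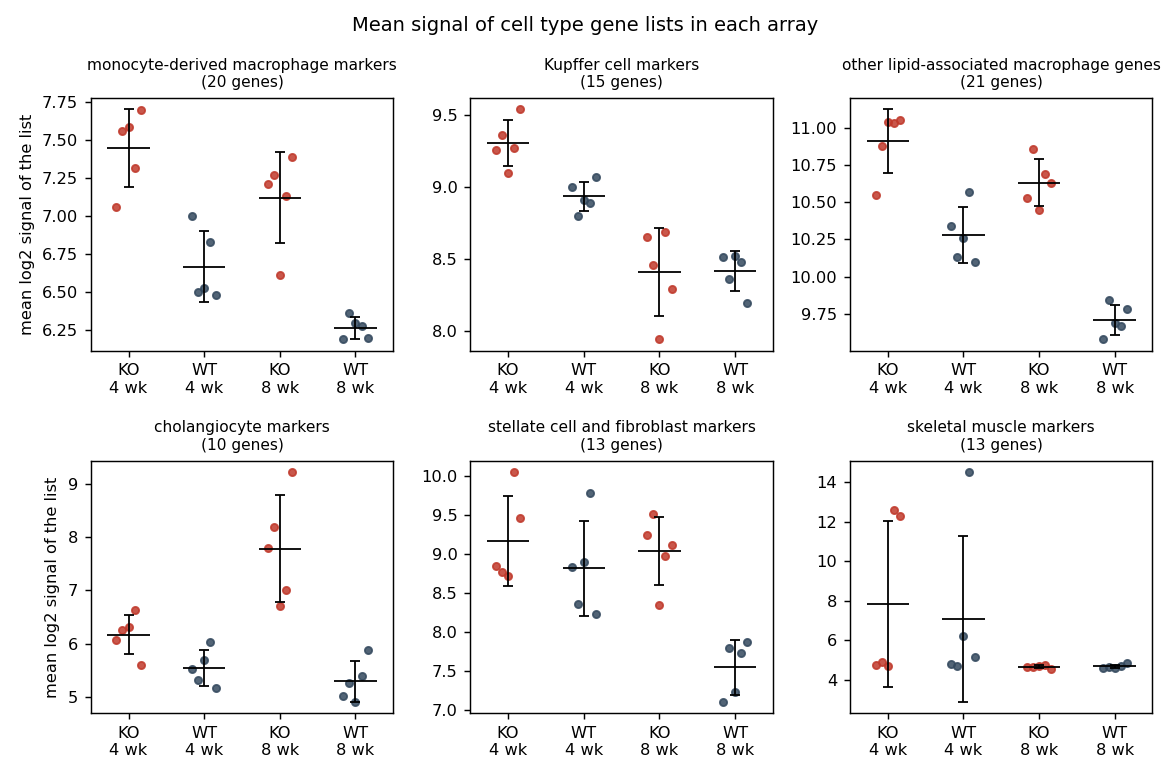
Mean log2 signal per array (y axis) of 6 gene lists in the 4 groups (x axis: KO then WT at 4 weeks, KO then WT at 8 weeks). Points are arrays and bars are the mean and SD of 5 arrays. At 8 weeks the KO arrays lie above the WT arrays for monocyte-derived, lipid-associated, cholangiocyte and stellate lists, and overlap them for the Kupffer list; muscle markers are high in 3 arrays at 4 weeks.

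Neutrophil and dendritic cell markers gave 0 calls at both ages by limma. Without adjustment, neutrophil markers had 3 higher and 1 lower gene at 8 weeks and 0 and 1 at 4 weeks, and dendritic cell markers 2 and 0 at 8 weeks and 0 and 0 at 4 weeks. Neither list was well measured, since 8 of 12 neutrophil and 6 of 9 dendritic cell genes were not above background in any group. The same held for 8 of 12 T and NK cell, 6 of 8 B and plasma cell and 4 of 7 adipocyte genes. Few calls on these lists thus do not show a lack of change. The neutrophil list, whose cells also make Lyz2 and Cybb, averaged 4.17 to 4.53 in KO and 4.15 to 4.33 in WT at 8 weeks. Without the arrays with muscle transcripts 1 neutrophil gene was lower at 4 weeks. T and NK cell markers had 1 of 12 lower at 8 weeks, Cd4 (-0.79, adjusted p = 0.00404), and 1 higher at 4 weeks, Cd3e, whose signal did not exceed background in any group. B and plasma cell markers had 1 of 8 higher at 8 weeks, Jchain, with a difference of 1.82 (limma adjusted p = 0.0135). Its WT mean was not above background, so the difference counts as at least 0.74. The call was lost with the pair of groups fitted alone. At 4 weeks 0 B and plasma cell markers were called, and 1 was lower without adjustment. Sinusoidal endothelial markers had 1 of 10 higher at 8 weeks, Pecam1 (0.81, limma adjusted p = 0.0358), a call lost under 8 settings. At 4 weeks 1 was lower, Stab2 (-1.07, adjusted p = 0.00143). Without adjustment 2 were higher at 8 weeks and 3 lower at 4 weeks. Hepatocyte markers had 1 of 11 lower at each age, Cyp8b1 at 8 weeks and Cyp2e1 at 4 weeks. Without adjustment 1 was lower at 8 weeks and 4 at 4 weeks, with 0 higher and medians of -0.07 and -0.28. Adipocyte markers, whose cells make Lpl, had 0 of 7 called at 8 weeks, also without adjustment, and 1 higher at 4 weeks, Cidec (1.49, adjusted p = 0.00355), a lipid droplet gene. Skeletal muscle markers had 0 of 13 called at either age, also without adjustment.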

How the data were processed

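RNA of 20 mouse livers was measured on Clariom S Mouse arrays. The deposited values are log2 signals, which the authors made with Affymetrix Expression Console and RMA, per the submitters' processing notes; versions are not given in the sources used here. They lay between 2.32 and 19.85, with array medians between 5.42 and 5.58. Values above 16 exceed what a 16-bit scanner records, and their origin is not stated, which leaves the size of a fold uncertain. Groups came from the genotype and age labels. The array numbers in the titles run in group order, so array order and group cannot be told apart.

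Of 22206 features, 19572 had 1 symbol, 0 several and 2634 none. Symbols with several features (55) were represented by the brightest, leaving 19505 genes. A model of 4 group means per gene was computed in R 4.3.3 with limma 3.58.1 (empirical Bayes, 16 residual degrees of freedom, Benjamini-Hochberg adjustment over all genes, threshold 0.05). Exact permutation tests were two-sided. The number of arrays limits the precision. The fit was tested on simulated data. The background level and nearest patterns are as defined in the text. All members were named. The 18 other lists held 246 genes, 226 of them measured. Genes named from them came from up to 4 called genes per list with the smallest adjusted p in KO against WT at an age. Not all of those genes are named in the text. Tyrobp, Csf1r, Adgre1, Cd68, Ptprc, Clec4f, Ccr2 and Ogt were chosen in addition, whatever their values. Pdgfrb is named with its values as a nearest pattern. Members and lists were chosen with earlier results of these data known. Promoters are RefSeq's. Alternatives were 2 other scalings, a filter on the dimmest 25% of genes, averaged features, a robust trended prior, groups fitted in pairs, array weights, the replicate number as a block, leaving out the 3 arrays with muscle transcripts and leaving out each of 20 arrays. The counts on gene lists without the arrays with muscle transcripts were added after the data were seen. No detection calls were used.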

Additional observations from a re-analysis of the deposited data

Results flagged for a closer look

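Fabp5 in replicate 1 of KO at 4 weeks, at 10.26, lay far from the other 4 arrays of its group, which were 9.01 to 9.18, by Dixon's gap criterion. It was 1 such array among 36 groups of 5 examined, and chance gives about 1 in 20. The KO minus WT difference was greater at 8 than at 4 weeks by the interaction test of limma for 3 genes. It was greater by 2.38 for Lpl (adjusted p = 0.0191), by 2.20 for Fabp5 (adjusted p = 0.0494) and by 2.10 for Lyz2 (adjusted p = 0.00267). For Fabp5 the sign hides a smaller gap between KO and WT, with -0.32 at 8 weeks and -2.52 at 4 weeks. The Fabp5 call was lost in 14 of 20 fits that left out 1 array and in 4 of 8 other settings. All 5 KO arrays lay above all 5 WT arrays for Lpl and Lyz2 at 8 weeks, and all 5 KO arrays below all 5 WT arrays for Fabp5 at 4 weeks.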

How the results depend on the processing

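With each array left out in turn, the number of members called was 7 at 8 weeks and 6 at 4 weeks in each fit, 2 to 3 in the interaction, 5 to 7 for 8 against 4 weeks in KO and 4 in WT. The other settings gave 7, 6, 2 to 3, 5 to 6 and 4. Genes called in the interaction ranged from 385 to 747 with 1 array left out, against 595 with all arrays, and the lowest count came without replicate 1 of KO at 8 weeks. The cause was not tested. Counts of genes called in the other 4 comparisons stayed within 1.5 times of those with all arrays under the settings run. Among the members' differences under the alternatives, 1261 kept direction and side of the threshold, 23 lost the call, 1 gained it and 11 changed sign. Those that changed sign had no call in any case. They were Fabp5 at 8 weeks without WT replicate 1 (0.10, in a range of -0.57 to 0.10 with 1 array left out), Lpl at 4 weeks (range -0.44 to 0.11) without KO replicate 1 (0.03), KO replicate 2 (0.07) or WT replicate 4 (0.11), and the Gpnmb interaction, which was 0.04 with all arrays and -0.10 to 0.22 with 1 left out. The Gpnmb interaction was -0.002 with array medians set equal, -0.02 without KO replicate 1 of 4 weeks, -0.03 without KO replicate 5 or WT replicate 5 of 4 weeks or KO replicate 2 of 8 weeks, -0.10 without WT replicate 3 of 8 weeks and -0.08 without WT replicate 4 of 8 weeks. Of 72 called differences of list genes, 21 lost the call under some setting and 0 changed sign.

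Same-numbered KO and WT arrays of an age had deviations with a correlation over 0.1 in 5 of 10 pairs, 4 of them at 4 weeks, with correlations from -0.176 to 0.479, so the replicate numbers were not taken as pairs. With the replicate number as a block, 1804 genes were called at 4 weeks, 1170 at 8 weeks, 488 in the interaction, 2650 for age in KO and 1626 for age in WT, and the members called were 6, 7, 3, 6 and 4. Weak signals limit Trem2, Lgals3 and, in WT, Gpnmb, whose group means lay near or below background.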
